A study of Mus musculus with 18 samples.

Results

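The comparison of CyrKO hippocampus, from mice without the long noncoding RNA Cyrano, with wild-type (WT) hippocampus used 6 of the 18 small-RNA libraries of the series. These were 3 CyrKO and 3 WT libraries, chosen by the genotype and tissue in their labels, and all 1841 mature miRNAs listed for them were considered. Both groups were male mice of the C57BL/6J strain aged 1 month, with 3 biological replicates per genotype. The labels describe neither the Cyrano allele nor any pooling of animals, and they give RNA integrity numbers of 8.7, 9.0 and 9.1 for CyrKO libraries 1, 2 and 3 and 9.1 for each WT library. Levels are given as CPM, the reads of a miRNA scaled to its library's total of miRNA reads on the usual counts-per-million scale. Tests are edgeR's quasi-likelihood test with Benjamini-Hochberg adjustment over all tested miRNAs, with 0.05 as the threshold.

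MicroRNAs are short RNAs cut from a hairpin precursor. One strand, the guide, is loaded into an Argonaute protein and finds target RNAs mainly through its seed, bases 2 to 8, while the other strand, the passenger, is mostly discarded. Most targets are repressed by their miRNA, but a target that pairs with the seed and also extensively with the 3′ end can trigger decay of the miRNA itself, which is called target-directed miRNA degradation. Cyrano, which is known for abundant expression in brain, carries such a site for miR-7, a miRNA of neurons and endocrine cells. Since decay acts on the loaded guide after the strands have parted, guide and passenger strands were compared throughout.

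The sequences are those of the 4 miRNAs that rose in CyrKO hippocampus and of the Cyrano site, since the comparison turns on how they relate. The miRNA sequences are from RefSeq (GRCm38.p6), 5′ to 3′, with the seed in capitals.
miR-7a-5p: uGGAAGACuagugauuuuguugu
miR-7b-5p: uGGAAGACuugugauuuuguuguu
miR-671-5p: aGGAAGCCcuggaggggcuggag
miR-409-3p: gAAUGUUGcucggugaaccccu
Cyrano site: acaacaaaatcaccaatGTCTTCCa
The Cyrano stretch lies at chr2:119602137-119602161 on the plus strand of GRCm38, in exon 3 of the 3 exons of 1700020I14Rik in the GENCODE M21 annotation, and its capitals mark the 7 bases complementary to the miR-7 seed.

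Counted from 1 at the 5′ end, miR-7b-5p differs from miR-7a-5p by A10U and by a further base at its 3′ end, so both share the seed. miR-7a-5p is encoded at chr13:58392841-58392863 on the minus strand, in the hairpin Mir7-1 within an intron of Hnrnpk, and at chr7:78888295-78888317 on the plus strand, in Mir7-2. miR-7b-5p is encoded at chr17:56243017-56243040 on the plus strand. miR-671-5p, known for directing the slicing of the circular RNA Cdr1as, lies at chr5:24592132-24592154 on the plus strand, in an exon of Chpf2 that also overlaps an exon of Smarcd3 on the other strand. miR-409-3p lies at chr12:109743204-109743225 on the plus strand, in an intron of Mirg in the imprinted miRNA cluster of that chromosome. The seed of miR-671-5p differs from that of miR-7a-5p by A7C. Of the 591 tested miRNAs with a RefSeq sequence, 2 had a seed 1 base away from that of miR-7, miR-671-5p and miR-379-5p.

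Without G:U pairs, the Cyrano stretch pairs with bases 11 to 23 of miR-7a-5p, a run of 13, and with the same bases of miR-7b-5p, beside the seed match. For miR-7b-5p the pairing goes on for 1 more base just before the printed stretch, to base 24, a run of 14. The longest run of pairing anywhere in the 8300-base Cyrano transcript had a median of 8 bases over the 591 miRNAs. Runs of 13 or more were found for 4 of them, both miR-7 guides, miR-7024-3p with 15 bases and miR-3057-3p with 14. The run covered bases 5 to 19 of miR-7024-3p, whose seed had 0 matches in Cyrano. It covered bases 3 to 16 of miR-3057-3p, whose seed had 1 match. miR-7024-3p had 1.71, 1.59 and 1.56 CPM in CyrKO libraries 1 to 3 and 1.98, 1.02 and 1.29 CPM in WT libraries 1 to 3. miR-3057-3p had 3.28, 3.18 and 2.86 CPM in CyrKO and 2.33, 2.66 and 2.48 CPM in WT. The groups overlapped for miR-7024-3p and not for miR-3057-3p, and neither passed the threshold, with log2 changes of 0.18 and 0.29 (edgeR adjusted p = 0.948 and 0.846). The longest run was 9 bases for miR-671-5p and 8 for miR-409-3p, close to the median of all. The seed match of miR-7, GTCTTCC, was found 2 times in Cyrano on its sense strand. Of 1043 annotated transcripts of 7500 to 9100 bases, Cyrano among them, 47.7% held it at least once and 13.3% at least 2 times, and the 13-base run was found in 1 (0.0959%). A match of letters is a description and shows no binding.

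The 6 libraries held 8591172 to 13425687 miRNA reads, with a read of 1113 to 1174 miRNAs. Of the 1841 miRNAs, 702 had enough reads to be tested, and the 1139 others took 0.0151% of the reads. Replicates correlated at r = 0.989 to 0.997 on log2 levels across miRNAs. Cyrano is too long to be measured in small-RNA libraries, so the genotype was not checked on the targeted RNA. The 10 miRNAs of the list of hippocampus-rich miRNAs, such as miR-137-3p and miR-222-3p, summed to 29981 to 32223 CPM in these libraries. In the CyrKO and WT cerebellum libraries of the series they summed to 5562 to 6449 CPM. The list was chosen with earlier results of these data known, so these sums describe the libraries and are no independent check of the tissue. WT library 3 stood apart: among the 6 libraries it held the lowest level of 220 of the tested miRNAs (31.3%) and the highest level of 189 (26.9%). CyrKO library 1 held the highest level of 180 (25.6%).

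Both miR-7 guides rose about 6-fold in CyrKO hippocampus. miR-7a-5p had 26072, 24296 and 25304 CPM in CyrKO libraries 1, 2 and 3, against 4658, 3752 and 4532 CPM in WT libraries 1, 2 and 3. Every CyrKO library thus lay far above every WT library. The fitted rise was 5.77-fold, a log2 change of 2.53 (SE 0.10, 95% interval 2.31 to 2.74, edgeR adjusted p = 1.07e-07). miR-7b-5p had 10284, 10198 and 9855 CPM in CyrKO, against 1605, 1322 and 1530 CPM in WT. Its groups were as far apart, with a 6.72-fold rise and a log2 change of 2.75 (SE 0.09, 95% interval 2.55 to 2.94, edgeR adjusted p = 3.75e-08). In the ranking of miRNAs by level, miR-7a-5p stood at position 8 in each CyrKO library, against 40, 45 and 39 in the WT libraries. miR-7b-5p stood at 23, 25 and 26 in CyrKO and at 73, 87 and 78 in WT.

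The 2 guides together took 3.64%, 3.45% and 3.52% of the miRNA reads in CyrKO libraries and 0.626%, 0.507% and 0.606% in WT libraries. The means were 3.53% ± 0.09 in CyrKO and 0.580% ± 0.064 in WT (SD, n = 3 each). The exact two-sided permutation p was 0.1, the smallest that 3 against 3 libraries allow. Counting error was small beside this spread, with an exact binomial (Clopper-Pearson) 95% interval of 3.44% to 3.46% for CyrKO library 2, the shallowest of the CyrKO libraries. Because shares add up to a fixed total, the larger miR-7 share lowers the share of every other miRNA, by 0.04 on the log2 scale.

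In the tested miRNAs as a whole, 4 rose (0.57%) and 0 fell (0%). The unadjusted p was under 0.05 for 27 miRNAs (3.85%), 16 of them higher (2.28%) and 11 lower (1.57%) in CyrKO. DESeq2 also called 4 higher and 0 lower. The authors' deposited table gives 4 of its 1367 miRNAs with p-values an adjusted p under 0.05 (0.293%), again miR-7a-5p, miR-7b-5p, miR-409-3p and miR-671-5p. The change was positive for 347 of the 702 (49.4%), with a median log2 change of −0.0045. CyrKO libraries lay above all WT libraries for 34 miRNAs (4.84%) and below all of them for 30 (4.27%).

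**Figure D1:**
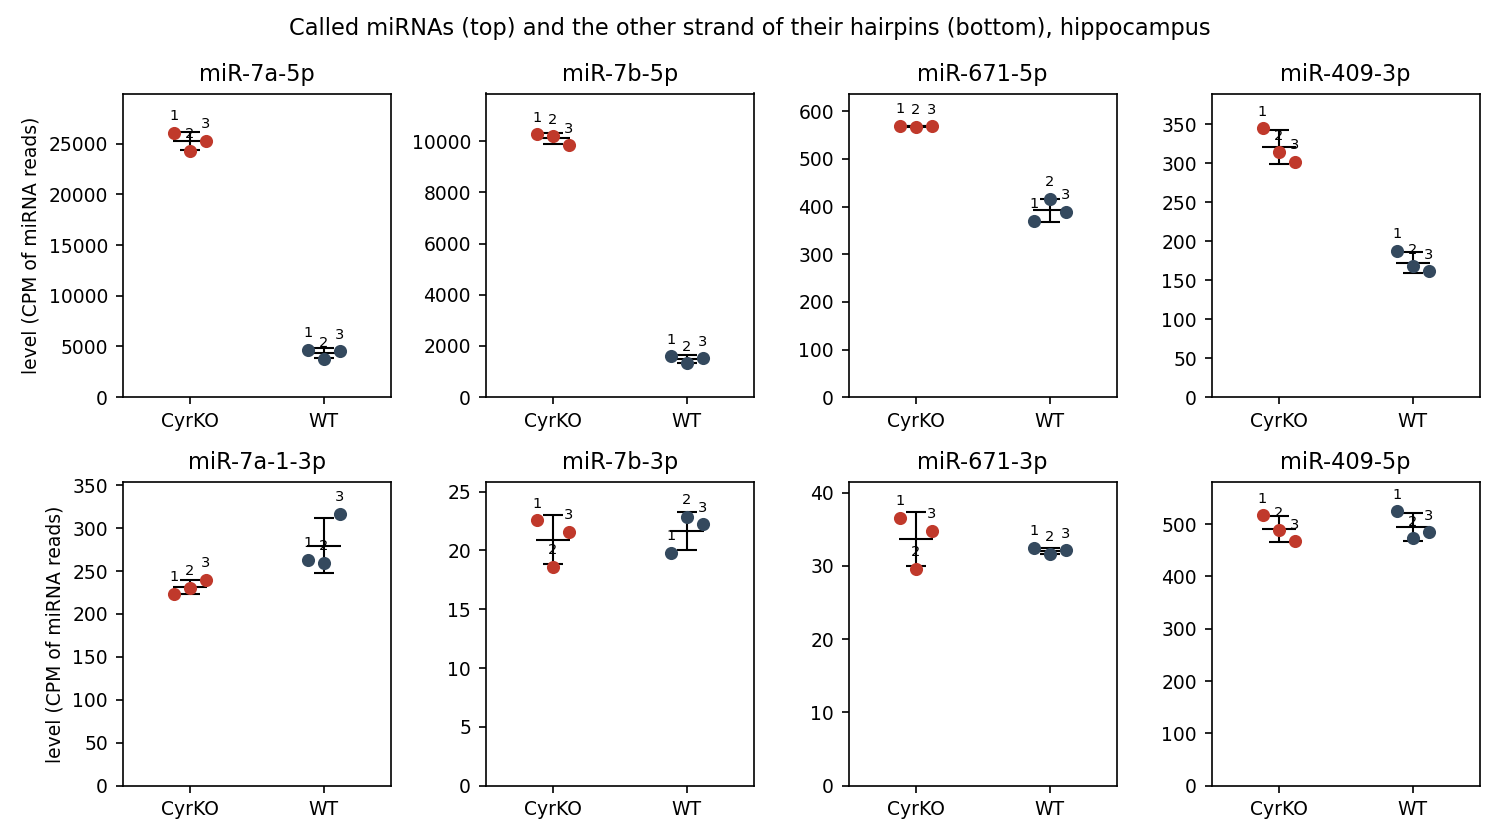
Level in CPM of miRNA reads in each library of CyrKO (left in each panel) and WT hippocampus, with the library number at each point and the mean and SD as bars, n = 3 each. The upper row shows the 4 miRNAs that rose and the lower row a strand from the other side of each hairpin, where the miR-7a-1-3p panel is the only one of the 4 without overlap, with CyrKO below WT.

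The passenger strands of the miR-7 hairpins did not rise with their guides. miR-7a-1-3p, from Mir7-1, had 223.7, 230.7 and 239.5 CPM in CyrKO libraries and 262.8, 259.4 and 316.8 CPM in WT libraries. Its CyrKO libraries all lay below its WT libraries, but the log2 change of −0.29 (SE 0.10) did not pass the threshold (edgeR adjusted p = 0.846). miR-7a-2-3p, from Mir7-2, had 158.6, 126.7 and 146.1 CPM in CyrKO and 151.9, 143.2 and 158.1 CPM in WT. miR-7b-3p had 22.6, 18.6 and 21.6 CPM in CyrKO and 19.8, 22.8 and 22.2 CPM in WT. The groups overlapped for both, with log2 changes of −0.09 (95% interval −0.31 to 0.13) and −0.06 (95% interval −0.32 to 0.19). The upper ends of these intervals lie well under the changes of the guides.

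The ratio of a guide to its passenger strand needs no scaling between libraries. On the log2 scale, miR-7a-5p over miR-7a-1-3p came to 6.77 ± 0.08 in CyrKO and 3.95 ± 0.17 in WT, and miR-7a-5p over miR-7a-2-3p to 7.46 ± 0.11 in CyrKO and 4.83 ± 0.11 in WT (SD, n = 3 each). For the third hairpin, miR-7b-5p over miR-7b-3p came to 8.92 ± 0.15 in CyrKO and 6.10 ± 0.24 in WT. The CyrKO libraries lay above the WT libraries in each of these ratios, with differences of 2.82, 2.63 and 2.82. Each had an exact two-sided permutation p of 0.1, the smallest possible, and 0.1 after adjustment over 8 ratios. Since miR-7a-5p is cut from 2 hairpins, its reads cannot be divided between Mir7-1 and Mir7-2.

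The 2 guides did not rise by quite the same factor. There were 2.54, 2.38 and 2.57 reads of miR-7a-5p per read of miR-7b-5p in CyrKO libraries, and 2.90, 2.84 and 2.96 in WT libraries. The CyrKO values all lay below the WT values, with means of 2.50 ± 0.10 in CyrKO and 2.90 ± 0.06 in WT (exact two-sided permutation p = 0.1). In cerebellum the means were 2.47 ± 0.17 in CyrKO and 2.88 ± 0.13 in WT, and both tissues were looked at for this ratio after its values were seen. The guides differ by 1 base and by length, so how reads were assigned between them bears on the ratio, and the assignment is not given in the sources used here.

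miR-671-5p had 569.1, 567.8 and 568.4 CPM in CyrKO libraries and 369.9, 416.8 and 389.4 CPM in WT libraries. The CyrKO values were nearly equal and lay above each WT value, a 1.43-fold rise with a log2 change of 0.52 (SE 0.07, 95% interval 0.37 to 0.67, edgeR adjusted p = 0.00386). The other strand, miR-671-3p, had 36.6, 29.6 and 34.8 CPM in CyrKO and 32.5, 31.7 and 32.1 CPM in WT, overlapping groups with a log2 change of 0.05 (SE 0.10). Within the hairpin, 5p over 3p came on the log2 scale to 4.08 ± 0.16 in CyrKO and 3.61 ± 0.10 in WT, without overlap (exact two-sided permutation p = 0.1). No other miRNA in RefSeq's mouse set shares the seed of miR-671-5p or that of miR-409-3p.

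miR-409-3p had 344.6, 314.3 and 302.1 CPM in CyrKO libraries and 187.8, 168.1 and 161.5 CPM in WT libraries. The groups did not overlap, and the rise was 1.83-fold, a log2 change of 0.87 (SE 0.08, 95% interval 0.69 to 1.06, edgeR adjusted p = 0.000299). From the same hairpin, miR-409-5p had 517.2, 488.8 and 467.1 CPM in CyrKO and 524.8, 472.8 and 484.6 CPM in WT, which overlapped. The 3p strand was the less abundant strand of this hairpin in both groups, with a log2 ratio of 3p to 5p of −0.62 ± 0.03 in CyrKO and −1.52 ± 0.06 in WT (exact two-sided permutation p = 0.1). The strand that rose was thus the minor one.

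Near-identical 3p strands come from 2 further hairpins of the same cluster, Mir379 and Mir411. They share a seed and differ, from miR-379-3p to miR-411-3p, by U10C and U22C. Their sequences are given because reads may be split between them, as between the miR-7 guides.
miR-379-3p: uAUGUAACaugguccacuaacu
miR-411-3p: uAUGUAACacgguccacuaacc
miR-411-3p had 761.5, 730.9 and 694.2 CPM in CyrKO libraries and 571.2, 553.5 and 701.2 CPM in WT libraries. miR-379-3p had 396.7, 390.6 and 359.7 CPM in CyrKO and 313.0, 287.5 and 376.6 CPM in WT. For both, WT library 3 lay within the CyrKO range while WT libraries 1 and 2 lay below it. With all libraries the log2 changes were 0.24 (SE 0.09) and 0.21 (SE 0.10), neither past the threshold (edgeR adjusted p = 0.846 for each). Of the 19 alternatives that gave these strands a value, only 1 called them, and it left out WT library 3, the WT library within the CyrKO range. Without that library the changes were 0.37 (SE 0.06, edgeR adjusted p = 0.00835) for miR-411-3p and 0.34 (SE 0.07, edgeR adjusted p = 0.0352) for miR-379-3p. In that fit 6 of 724 miRNAs were higher (0.829%) and 1 was lower (0.138%). The lower one was miR-219a-5p, a miRNA of maturing oligodendrocytes, with 4611, 4808 and 5209 CPM in CyrKO and 7155, 6378 and 3006 CPM in WT. WT library 3 alone lay below the CyrKO libraries there, so the log2 change was −0.48 (SE 0.08, edgeR adjusted p = 0.0258) without it and −0.19 (SE 0.36) with it.

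The 5p strands of these hairpins did not pass the threshold. miR-411-5p had 690.4, 646.0 and 591.5 CPM in CyrKO and 620.9, 635.4 and 642.3 CPM in WT, and miR-379-5p had 1112, 1058 and 1004 CPM in CyrKO and 1162, 1019 and 1291 CPM in WT. The groups overlapped for both. The log2 ratio of 3p to 5p strand did not overlap between groups in either hairpin. It was 0.18 ± 0.05 in CyrKO and −0.06 ± 0.17 in WT for Mir411, and −1.47 ± 0.03 in CyrKO and −1.83 ± 0.06 in WT for Mir379 (exact two-sided permutation p = 0.1 each). WT library 3 was close to the others for the Mir379 ratio, at −1.78 against −1.89 and −1.83 in WT libraries 1 and 2, although it stood apart in the levels of both strands. For the Mir411 ratio it stood apart, at 0.13 against −0.12 and −0.20 in WT libraries 1 and 2. There it lay just below CyrKO library 1, at 0.14.

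To set these ratios beside other miRNAs, the log2 ratio of 5p to 3p strand was compared by limma over all 203 hairpins with both strands tested, an analysis added after the values had been seen. The ratio passed an adjusted p of 0.05 in 5 hairpins or hairpin pairings (2.46%), and CyrKO and WT libraries did not overlap in 34 (16.7%). These 5 were the 3 miR-7 pairings, Mir409 with a change of −0.90 (limma adjusted p = 0.000996) and Mir592 with −0.71 (limma adjusted p = 0.0441). miR-592-5p had 5.96, 6.58 and 4.59 CPM in CyrKO and 7.10, 8.61 and 6.79 CPM in WT, while miR-592-3p had 9.53, 10.2 and 7.71 CPM in CyrKO and 6.87, 9.84 and 5.82 CPM in WT. Neither strand of Mir592 passed the threshold by itself. The ratios of Mir379, Mir671 and Mir411 did not pass in this comparison (limma adjusted p = 0.092, 0.138 and 0.558). The middle 95% of the 198 other changes lay between −0.49 and 0.47, a range that includes those of Mir379 and Mir411, while that of Mir671 lay just past its upper end.

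**Figure D2:**
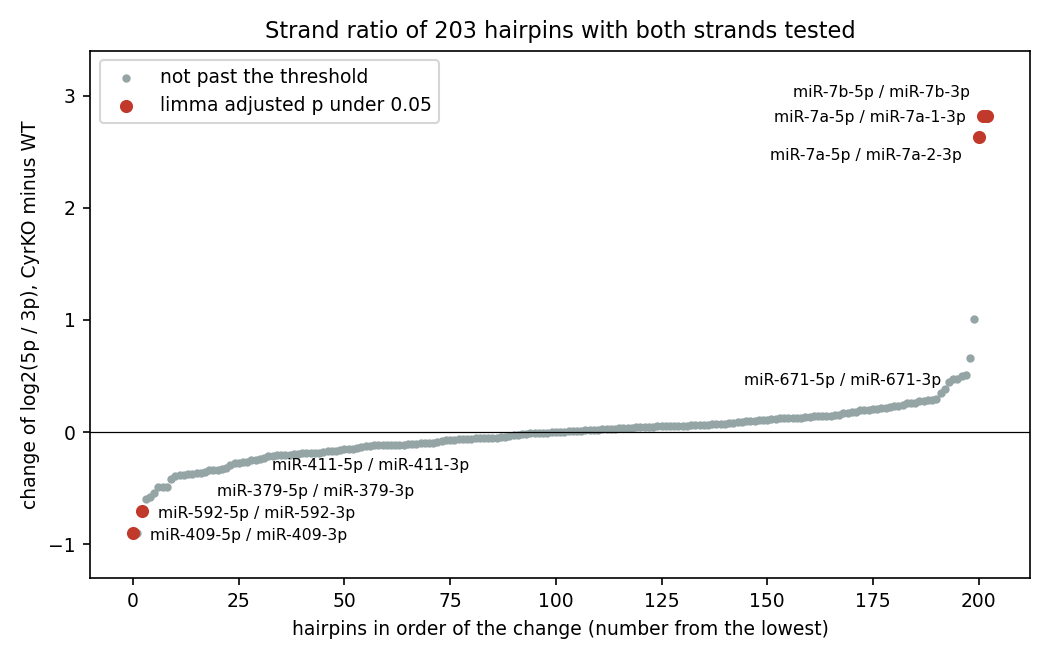
Change of the log2 ratio of 5p to 3p strand, CyrKO minus WT, for each of 203 hairpins with both strands tested, ordered by the change. The miR-7 pairings stand at 2.63 to 2.82, above the other hairpins, and Mir409 stands at −0.90 at the low end because its 3p strand is the one that rose.

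miR-409, miR-411 and miR-379 belong to the imprinted miR-379/410 cluster, whose miRNAs are cut from a shared maternal transcript and are abundant in brain. Of the 56 tested members, 1 rose (miR-409-3p) and 0 fell, 24 had a positive change, and the median log2 change was −0.02, against −0.0045 over all tested miRNAs. The most abundant members were at −0.04 for miR-376a-3p, −0.02 for miR-487b-3p, 0.04 for miR-300-3p and −0.10 for miR-369-3p. The immediate neighbours of miR-409-3p did not pass the threshold, with miR-541-5p at −0.01 (SE 0.07) and miR-541-3p at −0.15 (SE 0.12) on one side of its hairpin and miR-412-5p at −0.0006 (SE 0.08) and miR-412-3p at 0.42 (SE 0.29) on the other. The neighbours were named for their position after the values had been seen. None of the 23 tested members of the adjoining miR-127 and miR-433 group passed (median log2 change 0.03), and miR-127-3p, its most abundant member, was at 0.10 (SE 0.07).

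**Figure D3:**
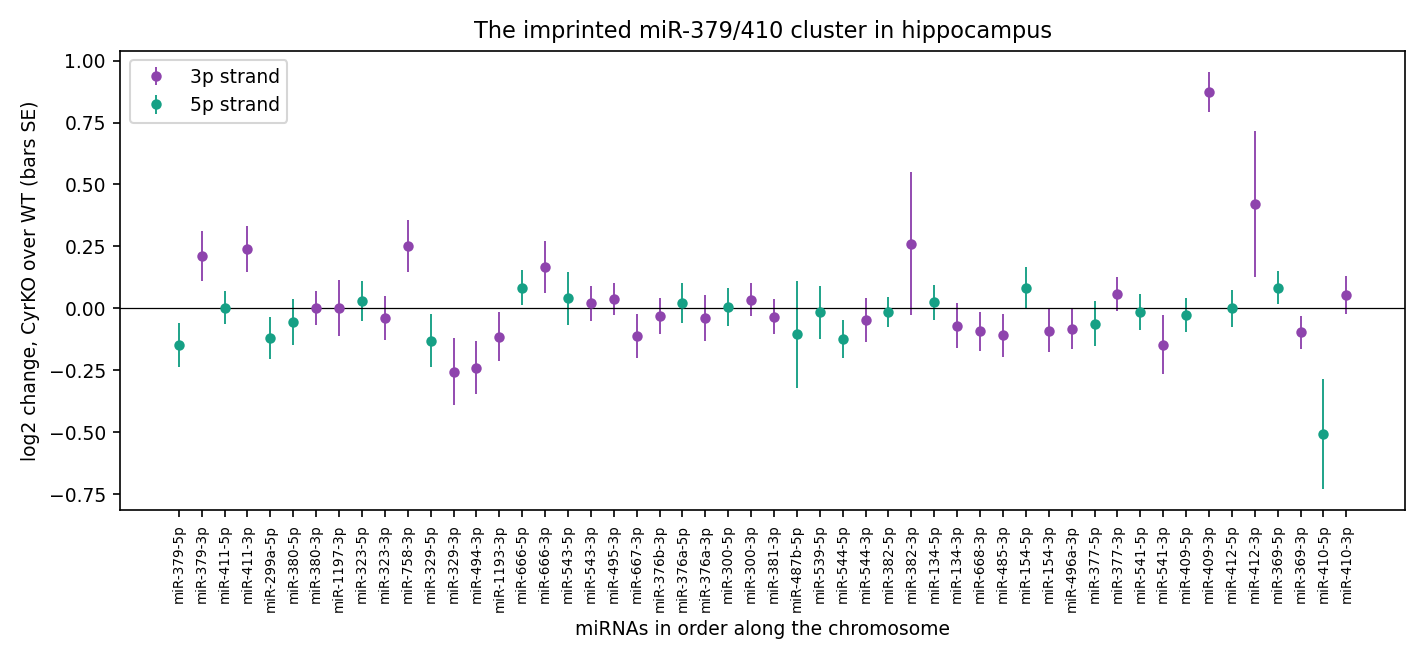
Log2 change, CyrKO over WT, with its SE for the tested miRNAs of the miR-379/410 cluster with a RefSeq position, in order along the chromosome, 3p and 5p strands in different colours. miR-409-3p stands at 0.87 while the strands beside it lie near 0 or have wide errors.

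The precision for the rest depended on abundance. Among miRNAs that were not called, the middle 95% of log2 changes ran from −0.24 to 0.39 for the 101 with a mean of at least 1000 CPM, from −0.22 to 0.32 for the 169 at 100 to 1000 CPM, from −0.25 to 0.45 for the 177 at 10 to 100 CPM and from −0.55 to 0.58 for the 251 under 10 CPM. The 95% interval of the change lay within ±0.5 for 91 of the 101 most abundant and for 37 of the 251 least abundant.

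**Figure D4:**
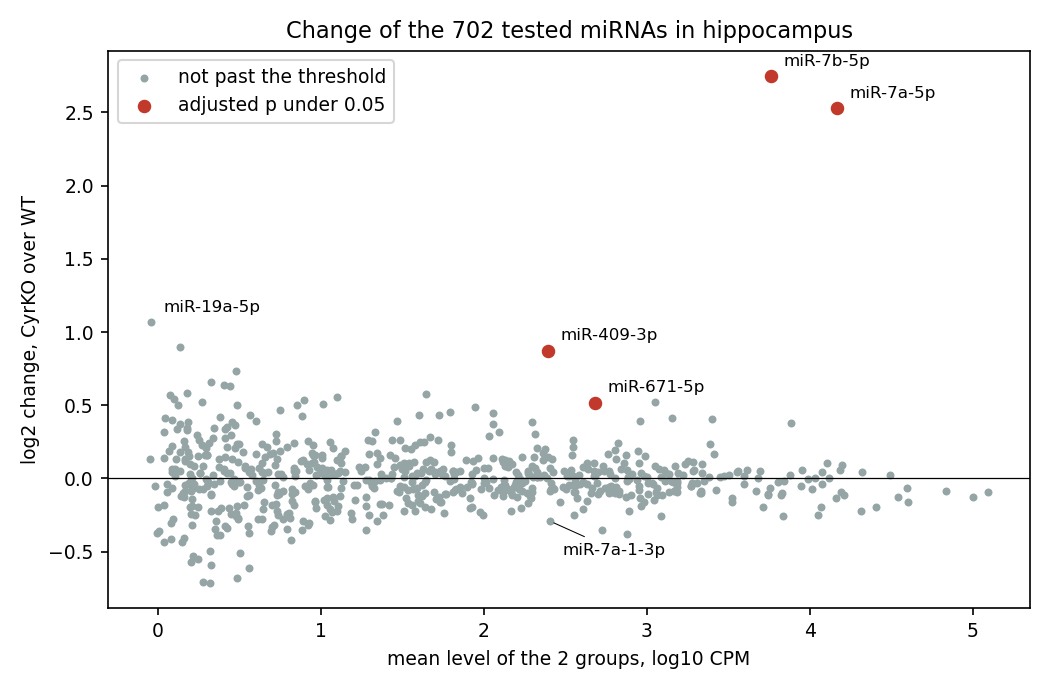
Log2 change, CyrKO over WT, against the mean level in log10 CPM for the 702 tested miRNAs of hippocampus, with the 4 that passed the threshold in red. The miR-7 guides stand at 2.53 and 2.75, and the scatter of the others widens toward low levels.

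The 12 most abundant miRNAs took 52.3% of the reads in CyrKO and 55.3% in WT. They include miR-124-3p, miR-9-5p, miR-128-3p, miR-138-5p and miR-218-5p, known for their abundance in neural cells, miR-125b-5p, miR-125a-5p and miR-26a-5p, the miR-29 members miR-29a-3p and miR-29b-3p, and the differentiation-associated let-7b-5p and let-7f-5p. Their log2 changes ran from −0.22 to 0.09, with 95% intervals between −0.47 and 0.25, and none passed. miR-124-3p had 115784, 121646 and 124643 CPM in CyrKO and 136288, 137967 and 107814 CPM in WT, and WT library 3 was the lowest of all 6.

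Nearest to the threshold among miRNAs with a positive change were miR-1247-5p at 0.39, miR-669e-5p at 0.50, let-7g-3p at 0.47, miR-23a-5p at 0.64 and miR-19a-5p at 1.07. With a negative change they were miR-7066-3p at −0.68, miR-504-5p at −0.35, miR-7a-1-3p at −0.29, miR-328-5p at −0.61 and miR-598-3p at −0.19, and the edgeR adjusted p was 0.846 for all 10. Most were rare. miR-19a-5p, a passenger strand of the miR-17~92 cluster, had 1.19, 1.13 and 1.39 CPM in CyrKO and 0.582, 0.820 and 0.324 CPM in WT, whereas miR-598-3p had 886.1, 855.5 and 869.7 CPM in CyrKO and 1030, 884.7 and 1027 CPM in WT. The groups were apart for miR-19a-5p, and for miR-598-3p they overlapped, since WT library 2 lay below CyrKO library 1.

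Of 28 lists of related miRNAs, 23 held no miRNA past the threshold, and the 5 others each contained a miR-7 guide, miR-671-5p or miR-409-3p. In bulk tissue fewer cells of a type and less RNA per cell cannot be told apart. Neuronal miRNAs had 0 of 16 tested members called, 9 of 16 positive and a median log2 change of 0.01. Activity-regulated miRNAs had 0 of 8 called and a median of −0.02, with miR-132-3p, which follows neuronal activity through CREB, at −0.07 (SE 0.07) and miR-212-3p at −0.11 (SE 0.08). The hippocampus-rich list had 0 of 10 called and a median of −0.02. Among endocrine miRNAs, miR-375-3p, a miRNA of hormone-secreting cells, was at 0.23 (SE 0.28) and did not pass, unlike both miR-7 guides.

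Other miRNAs reported as targets of directed degradation did not pass the threshold. Of the 12 tested members 5 had a positive change, and the median log2 change was −0.03. miR-29b-3p, which the RNA NREP directs for decay, had 39279, 37780 and 39441 CPM in CyrKO and 38820, 41548 and 40008 CPM in WT, with overlapping groups and a log2 change of −0.07 (SE 0.07). miR-16-5p, of the miR-15/16 seed family, was at −0.04 (SE 0.07). The medians of this list and of the neuronal, activity-regulated and hippocampus-rich lists lay between −0.05 and 0.03 under each alternative tried.

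Some lists of non-neuronal cells varied widely among libraries of the same group. The choroid plexus list, led by miR-204-5p and miR-34c-5p, summed to 6400, 19899 and 14592 CPM in CyrKO libraries 1 to 3 and to 8345, 18762 and 3774 CPM in WT libraries 1 to 3. The range within each group was thus several times the difference between them, and although 12 of 13 members had a positive change (median log2 change 0.39), none passed. That median was −0.0055 without WT library 3, 0.05 without CyrKO library 2, 0.70 without CyrKO library 1 and 1.18 without WT library 2. miR-204-5p alone had 3967, 12666 and 9333 CPM in CyrKO and 5325, 11714 and 2837 CPM in WT. The 5 mesenchymal and meningeal miRNAs all had a positive change, none past the threshold, with a median of 0.46 and sums of 407.1, 406.4 and 336.9 CPM in CyrKO and 316.5, 378.9 and 258.3 CPM in WT, which overlapped. That median was 0.20 without CyrKO library 1 and 0.33 without WT library 3. The 6 vessel miRNAs were likewise all positive with none past the threshold (median 0.25, against 0.15 without CyrKO library 1 and 0.39 without CyrKO library 3), and miR-143-3p, a miRNA of smooth muscle, had 3661, 2885 and 2114 CPM in CyrKO and 2094, 2043 and 2303 CPM in WT. With the RNA integrity number in the fit, the medians were 0.81 for the choroid plexus, 0.17 for the mesenchymal and 0.07 for the vessel list. That number was the same in all WT libraries, so its slope came from the CyrKO libraries alone. The part of RNA integrity in these lists therefore cannot be told from this fit.

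The list of let-7 guides held 9 members, of which only 7 were listed for these libraries, and these 7 were tested. The change was positive in 1 of the 7, none passed the threshold, and the median log2 change was −0.20, or −0.06 without WT library 3. Their sums were 86215, 85360 and 86206 CPM in CyrKO and 91654, 87316 and 109136 CPM in WT. The CyrKO sums all lay below the WT sums, by little for WT library 2 and by most for WT library 3. The oligodendrocyte list had 0 of 5 called (median −0.07), with miR-338-3p at −0.02 (SE 0.11), and miR-219a-5p was a member that WT library 3 set apart. The list as a whole summed to 12980.5, 12918.3 and 13875.1 CPM in CyrKO and 16048, 15524 and 10063.5 CPM in WT, with WT library 3 lowest. Immune and microglial miRNAs had 0 of 7 called (median −0.07), and erythroid miRNAs, led by miR-451a at 0.16 (SE 0.09), had 0 of 3 called. With the level of the choroid plexus list added to the fit, edgeR again called 4 miRNAs higher and 0 lower. That level was taken from the same few libraries, so the fit cannot decide what part choroid plexus had. The part of any list in the result was not tested.

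**Figure D5:**
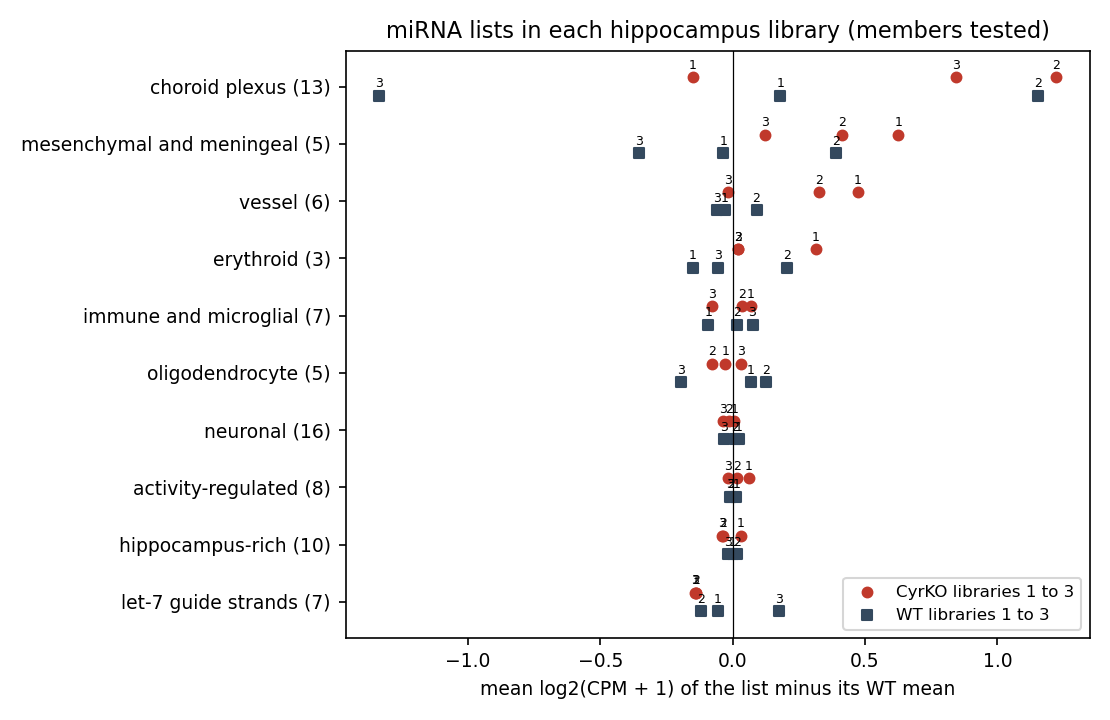
Mean log2(CPM + 1) of the tested members of 10 lists in each library, minus the list's WT mean, with CyrKO libraries above WT libraries in each row and the number of tested members in brackets. The choroid plexus list spreads over libraries of both groups, with WT library 3 lowest, while the neuronal, activity-regulated and hippocampus-rich lists lie near 0 in all libraries.

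Set against cerebellum, the miR-7 guides differed by a larger factor between tissues in WT than in CyrKO, though not by more CPM. Their sum in hippocampus was 35337 ± 944 CPM in CyrKO and 5799 ± 637 CPM in WT (SD, n = 3 each). In cerebellum it was 28162 ± 1192 CPM in CyrKO and 669 ± 78.1 CPM in WT (SD, n = 3 each). The mean sum in CyrKO thus exceeded that in WT by 29537 CPM in hippocampus and by 27493 CPM in cerebellum. Of the passenger strands, miR-7a-1-3p had 231 ± 7.95 CPM in CyrKO and 280 ± 32.2 CPM in WT hippocampus, and 364 ± 50.2 CPM in CyrKO and 365 ± 12.8 CPM in WT cerebellum. miR-7a-2-3p had 144 ± 16.1 CPM in CyrKO and 151 ± 7.47 CPM in WT hippocampus, and only 4.61 ± 0.88 CPM in CyrKO and 4.52 ± 0.40 CPM in WT cerebellum. In a fit of both tissues, the CyrKO effect on the log2 scale differed between tissues for 3 of 746 miRNAs (0.402%). These were miR-7a-5p, miR-7b-5p and miR-411-3p, each with the smaller log2 change in hippocampus. The difference did not pass for miR-671-5p (−0.37, SE 0.13, edgeR adjusted p = 0.765). It did not pass for miR-409-3p (−0.64, SE 0.14, edgeR adjusted p = 0.0785) or miR-379-3p (−0.67, SE 0.16, edgeR adjusted p = 0.083), but some alternatives called them.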

How the data were processed

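Small RNAs of 18 to 32 nt were sequenced from Trizol-extracted RNA of flash-frozen tissue, per the labels' protocols. Per the submitters' processing notes, cutadapt (no version) and DESeq2 1.10 were used. The read assignment is not given in the sources used here, nor are the annotation and build. Whole-number counts of reads per miRNA and library were deposited. The authors' normalised columns, per the file headers, are signal values, each equal to the count over 1 size factor per library for all 1841 miRNAs, within 0.01 reads plus 0.01% of the value. The log2 fold changes, test scores and p-values, raw and adjusted, are the authors' deposited comparison of CyrKO with WT.

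Counts of the 6 hippocampus libraries were tested in R 4.3.3 with edgeR 4.0.16 (filterByExpr with a minimum count of 10 and total of 15, TMM, robust quasi-likelihood F-test, Benjamini-Hochberg, threshold 0.05). The SE is the size of the log2 fold change over the square root of F. CPM values use the library's total miRNA reads, without TMM. Ratios and shares were compared by exact permutation in scipy 1.17.1, and strand ratios over all hairpins by limma 3.58.1 after adding 0.5 reads. DESeq2 1.42.0, other scalings and filters, covariates and leaving out each library were alternatives. The scripts were tested on simulated data.

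The members and lists were chosen with earlier results of these data known. Named are all strands of miR-7, miR-671, miR-409, miR-411 and miR-379, every miRNA past the threshold and its other strand, the 5 nearest to it in each direction, the 12 most abundant, up to 4 members per list and miRNAs with the seed of a called one. Others were named after their values were seen: miR-592, miR-7024-3p, miR-3057-3p and the neighbours of miR-409-3p. Sequences, transcripts and positions are from RefSeq GRCm38.p6 and GENCODE M21. Same-numbered libraries of the groups were not paired by the labels. The prefix mmu is left out of miRNA names, and some list members were not analysed here.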

Additional observations from a re-analysis of the deposited data

Results flagged for a closer look

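The effect of losing Cyrano differed between hippocampus and cerebellum for 3 miRNAs, by edgeR's test of that difference in a fit of 12 libraries. The log2 change in hippocampus minus that in cerebellum was −2.82 for miR-7a-5p (SE 0.15, edgeR adjusted p = 3.17e-09) and −2.81 for miR-7b-5p (SE 0.16, edgeR adjusted p = 3.17e-09). For miR-411-3p it was −0.77 (SE 0.16, edgeR adjusted p = 0.0387). Within the tissues its log2 changes were 0.24 in hippocampus, where WT library 3 stood apart, and 1.01 in cerebellum. Its call was lost with the replicate number as a block and without CyrKO hippocampus library 2, with the same direction each time.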

How the results depend on the processing

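miR-7a-5p, miR-7b-5p, miR-409-3p and miR-671-5p stayed past the threshold and higher in CyrKO under each alternative that gave them a value. Their log2 changes ranged over 2.44 to 2.59, 2.67 to 2.81, 0.82 to 0.95 and 0.48 to 0.56, and the highest adjusted p, for miR-671-5p, was 0.0474. The counts with each library left out in turn ran from 4 to 6 higher and from 0 to 1 lower, and the call of 1 lower miRNA came without WT library 3. Counting the near-identical strands as 1 miRNA left 3 higher, since the miR-7 guides then form a single entry. Same-numbered libraries deviated from their group means with r = −0.23, 0.73 and −0.26, and libraries of other numbers with r from −0.72 to 0.67. Deviations within a group of 3 depend on each other, so these values cannot decide whether the numbers pair the libraries. The replicate block gave 4 higher and 0 lower in hippocampus. In the difference between tissues, DESeq2 called 5 miRNAs lower, against 3 in edgeR, and the replicate block left 2, with an adjusted p of 0.0959 for miR-411-3p (0.111 without CyrKO hippocampus library 2). miR-409-3p was called in 6 of 16 alternatives (adjusted p 0.016 to 0.368 over all), DESeq2 and leaving out WT hippocampus library 3 among them, and miR-379-3p in 2 of 16 (0.0101 to 0.238), DESeq2 and leaving out WT hippocampus library 2. The CyrKO minus WT difference in the miR-7 guide share of miRNA reads was 5.73 percentage points with the 10 most abundant miRNAs left out of the total, against 2.95, since that total is smaller. The sign of the change of miR-7b-3p, miR-409-5p and miR-411-5p varied with the setting. With 3 libraries a group, exact tests of single ratios cannot go below 0.1, and for miRNAs under 10 CPM few changes of moderate size could be seen.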

Other observations

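Of the 1139 miRNAs with too few reads to be tested, none had more than 24 reads in a library. Among them 3 had a read in each CyrKO library and none in the WT libraries, and 2 had a read in each WT library and none in the CyrKO libraries.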
